A study of Mus musculus with 32 samples.

Results

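Myc and its dimerization network were followed here as 9 genes, Myc, Max, Mxd1, Mxd3, Mxd4, Mxi1, Mnt, Mlx and Mga, taken by their symbols from a table of 24538 genes. All 9 were in the table, and 9 of 9 were among the 11562 genes that passed the filter on low values. RNA was sequenced from 2 lines of S49 mouse lymphoma cells. Both lines carry an introduced resistance gene for the antibiotic G418, and in S49 (Bcl-2) cells, but not in S49 (Neo) cells, the Bcl-2 proto-oncogene was introduced in addition. In both lines dexamethasone (dex), a synthetic glucocorticoid, was given at 250 nM for 48 h or 24 h, and vehicle was given to the controls for the same times. Each of the 8 groups had 4 libraries, 32 in all. The paper's methods describe stable transfer of a retrovirus with the resistance gene, and for S49 (Bcl-2) cells an additional transfer of Bcl-2. Whether a line is 1 clone, and which promoter drives Bcl-2, is not given in the sources used here. Introduced Bcl-2 blocks the cell death that dex sets off in S49 cells, and the comparisons here ask how dex changed the network genes in cells with and without the introduced gene.

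Myc is a transcription factor that drives growth and proliferation, and lymphoid cells are known to lower it when glucocorticoids act on them. Myc binds DNA only as a dimer with Max, and the dimer raises transcription from a short sequence called the E-box. Mxd1, Mxd3, Mxd4 and Mxi1 are the Mxd family of antagonists. They take Max in place of Myc, bind the same E-box and recruit the Sin3 corepressor. Mnt, a larger repressor, pairs with Max or with Mlx. Mlx is a Max-like protein that also pairs with MondoA and ChREBP, which sense sugar metabolites. Mga joins Max in a variant Polycomb repressive complex.

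In the mm10 annotation of GENCODE M21, Myc lies at chr15:61985391-61990374 (plus strand), Max at chr12:76937269-76962201 (minus strand) and Mga at chr2:119897228-119969581 (plus strand). The Mxd family genes are Mxd1 at chr6:86647042-86669161 (minus strand), Mxd3 at chr13:55325168-55329823 (minus strand), Mxd4 at chr5:34173883-34187720 (minus strand) and Mxi1 at chr19:53310518-53375810 (plus strand). Mnt lies at chr11:74830920-74845725 (plus strand) and Mlx at chr11:101087277-101092207 (plus strand).

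Promoter windows of the network genes are shown because the E-box on which all these dimers act lies within some of them. The windows run from 250 bases before to 50 bases after a RefSeq start in GRCm38.p6. Of the 9 genes, 8 had such a window, 10 windows in all, since Mxi1 has 3. The gene without a window was Myc, so the motif counts below do not cover it. The E-box CACGTG, which reads alike on both strands, was found in 4 of the 8 genes, Mxd4, Mnt, Mlx and Max. It was found in 7.15% of all 32851 windows and in 8.09% of all genes with one. The half-site AGAACA followed after any 3 bases by its reverse complement TGTTCT, a full palindromic form of the site that the glucocorticoid receptor binds and also alike on both strands, was in 0 of the 10 windows, and in 0.00913% of all windows. The 250 bases before the start are given for Mxd4 (chr5:34187711-34187960, minus strand) and Mxd1 (chr6:86669160-86669409, minus strand), the antagonists with called rises under dex in both lines. For Mlx (chr11:101087223-101087282, plus strand), Mnt (chr11:74830774-74830833, plus strand) and Max (chr12:76962246-76962305, minus strand) 60 bases around the E-box are given. The first base of the E-box lies 219, 40, 123 and 3 bases before the start in Mxd4, Mlx, Mnt and Max in that order. Capitals mark the E-box, and the Mxd1 window has none. A match is a description of the letters and says nothing of binding in these cells.
Mxd4: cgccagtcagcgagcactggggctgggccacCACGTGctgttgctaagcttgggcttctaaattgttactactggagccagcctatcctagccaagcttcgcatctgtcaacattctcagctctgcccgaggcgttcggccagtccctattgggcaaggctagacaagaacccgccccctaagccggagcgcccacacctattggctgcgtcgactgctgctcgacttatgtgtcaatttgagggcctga
Mxd1: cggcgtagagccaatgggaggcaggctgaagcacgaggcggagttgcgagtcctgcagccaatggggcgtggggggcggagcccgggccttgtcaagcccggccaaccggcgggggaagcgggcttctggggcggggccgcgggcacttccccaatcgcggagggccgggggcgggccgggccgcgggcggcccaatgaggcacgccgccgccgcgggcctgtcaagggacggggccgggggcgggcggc
Mlx: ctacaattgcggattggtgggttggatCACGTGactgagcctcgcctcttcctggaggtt
Mnt: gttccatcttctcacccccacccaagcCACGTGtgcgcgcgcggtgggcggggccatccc
Max: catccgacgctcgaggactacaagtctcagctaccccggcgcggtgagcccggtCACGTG

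The deposited values were normalized log2 values, and how the log was taken is not stated. They ran from -2.38 to 20.15, and 4872 genes were at 0 in all libraries. Values below 0 cannot come from a log2 of the normalized value plus 1. A difference of 1 is read here as a change of 2-fold. The fold values and the levels per kb below rest on that reading. The labels were checked on single genes. Bcl2 was at 10.48 to 11.45 in the 16 S49 (Bcl-2) libraries and at 7.70 to 8.62 in the 16 S49 (Neo) libraries. Reads were placed on the mouse genome, and the paper stained Bcl-2 with an antibody against the human protein. The Bcl2 values are therefore not a level of the introduced gene alone. The glucocorticoid-induced gene Tsc22d3 rose by 0.94 to 2.21 log2 units with dex in the 4 comparisons. T cell markers were expressed, with 8 of 10 listed genes tested (Cd5 was below the filter) and a summed log2 level of 16.22 to 16.69 over the libraries. The defining markers of macrophages and granulocytes (Csf1r, Adgre1, S100a8, S100a9, Mpo) were below the filter, and in all 3 of 8 listed macrophage and granulocyte genes and 1 of 8 stromal, endothelial and epithelial genes passed it. Of these, Lyz2, a lysozyme of macrophages, fell with dex by 2.69 and 1.19 in S49 (Bcl-2) and by 1.14 and 0.79 in S49 (Neo) cells (48 h and 24 h in each case). Pecam1, a marker of endothelium that some blood cells also express, fell by 1.73 and 0.73 in S49 (Bcl-2) and by 1.68 and 1.07 in S49 (Neo) cells in the same order. Itgam and Cd68 rose in S49 (Bcl-2) cells, Itgam by 0.18 and 0.30 and Cd68 by 0.88 and 0.46, and in S49 (Neo) cells Itgam was at -0.18, called, and 0.04 and Cd68 at -0.33 and 0.09. The part of other cells in the results below was not tested. Replicate 3 of S49 (Bcl-2) with 24 h of dex stood apart. Over all genes tested, its difference from the other replicates of its group had an SD of 0.766, against 0.107 to 0.313 for the other 31 libraries. Changes at 24 h in S49 (Bcl-2) cells, and counts that moved without it, are given with and without it, a choice made after seeing the data. The fit shares 1 estimate of the spread of a gene over all groups, so this library also widens the errors of comparisons it does not enter.

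Myc itself was lower with dex in 3 of the 4 comparisons. In S49 (Bcl-2) cells at 24 h, Myc was at 13.25, 13.00, 13.50 and 13.25 with dex and at 13.64, 13.54, 13.59 and 13.63 in controls, without overlap. The highest of these dex libraries was replicate 3. The 4 dex libraries of S49 (Neo) cells at 24 h lay at 13.22, 13.12, 13.24 and 13.23 and the 4 controls at 13.60, 13.58, 13.56 and 13.62. After 48 h in S49 (Neo) cells, Myc was at 13.11, 13.05, 13.17 and 13.10 with dex and at 13.33, 13.30, 13.35 and 13.29 in controls. All 3 pairs of groups were separate. In S49 (Bcl-2) cells at 48 h they overlapped, at 13.04, 13.08, 13.01 and 13.23 with dex and at 13.33, 13.24, 13.07 and 13.09 in controls. With dex, Myc fell by 0.35 log2 units at 24 h in S49 (Bcl-2) cells (SE 0.07, limma adjusted p = 6.15e-05) and by 0.39 at 24 h in S49 (Neo) cells (SE 0.07, limma adjusted p = 2.48e-05). At 48 h it fell by 0.21 in S49 (Neo) cells (limma adjusted p = 0.0102). These 3 falls correspond to 1.27-fold, 1.31-fold and 1.16-fold lower Myc in that order, and without replicate 3 the 24 h change in S49 (Bcl-2) cells was -0.43. By size they ranked 5677th, 3261st and 6481st of the 11562 genes tested. The median size of change over all genes, in either direction, was 0.34, 0.22 and 0.25 in the same order. At 48 h in S49 (Bcl-2) cells Myc ranked 10000th, with a median of 0.38 over all genes. The 48 h difference in S49 (Bcl-2) cells was -0.09 and not called (95% interval -0.23 to 0.05, limma adjusted p = 0.239), 0.05 with quantile normalization and -0.14, called, with array weights, which give noisy libraries less weight. In bulk RNA, fewer cells of a type and less RNA per cell cannot be told apart, here and in every result below. No source says that the replicates are separate cultures, so the p-values measure the spread between these libraries, which may be technical.

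Myc was also lower in controls cultured for 48 h than for 24 h. The 48 h controls lay below the 24 h controls without overlap in both lines. The fall was 0.42 log2 units in S49 (Bcl-2) cells (SE 0.07, limma adjusted p = 1.33e-05) and 0.27 in S49 (Neo) cells (SE 0.07, limma adjusted p = 0.00178). By size, this ranked 2434th and 4133rd of the 11562 genes in the 2 lines in that order. The order of the 8 group means of Myc was led by both 24 h control groups, at 13.60 ± 0.04 in S49 (Bcl-2) and 13.59 ± 0.03 in S49 (Neo) (SD, n = 4 each), which overlapped. Next came the 48 h S49 (Neo) controls at 13.32 ± 0.03, and all groups from there down to the lowest overlapped with their neighbour. The lowest was S49 (Bcl-2) with 48 h of dex, at 13.09 ± 0.10. The dex change of Myc at 48 h was above that at 24 h by 0.26 in S49 (Bcl-2) cells (SE 0.10, limma adjusted p = 0.0354) and by 0.18, not called, in S49 (Neo) cells (limma adjusted p = 0.214). The S49 (Bcl-2) call was lost, at 0.18 to 0.25, on leaving out the 24 h control replicate 1 or 4, the 24 h dex replicate 2, the 48 h control replicate 3 or 4, or the 48 h dex replicate 4, and with median centring (0.28) or quantile normalization (0.23) of the libraries. The dex change of Myc did not differ by test between the lines, with S49 (Bcl-2) minus S49 (Neo) at 0.12 at 48 h (95% interval -0.08 to 0.32) and 0.04 at 24 h (95% interval -0.16 to 0.24). With quantile normalization the 48 h difference was 0.29 and called.

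**Figure D1:**
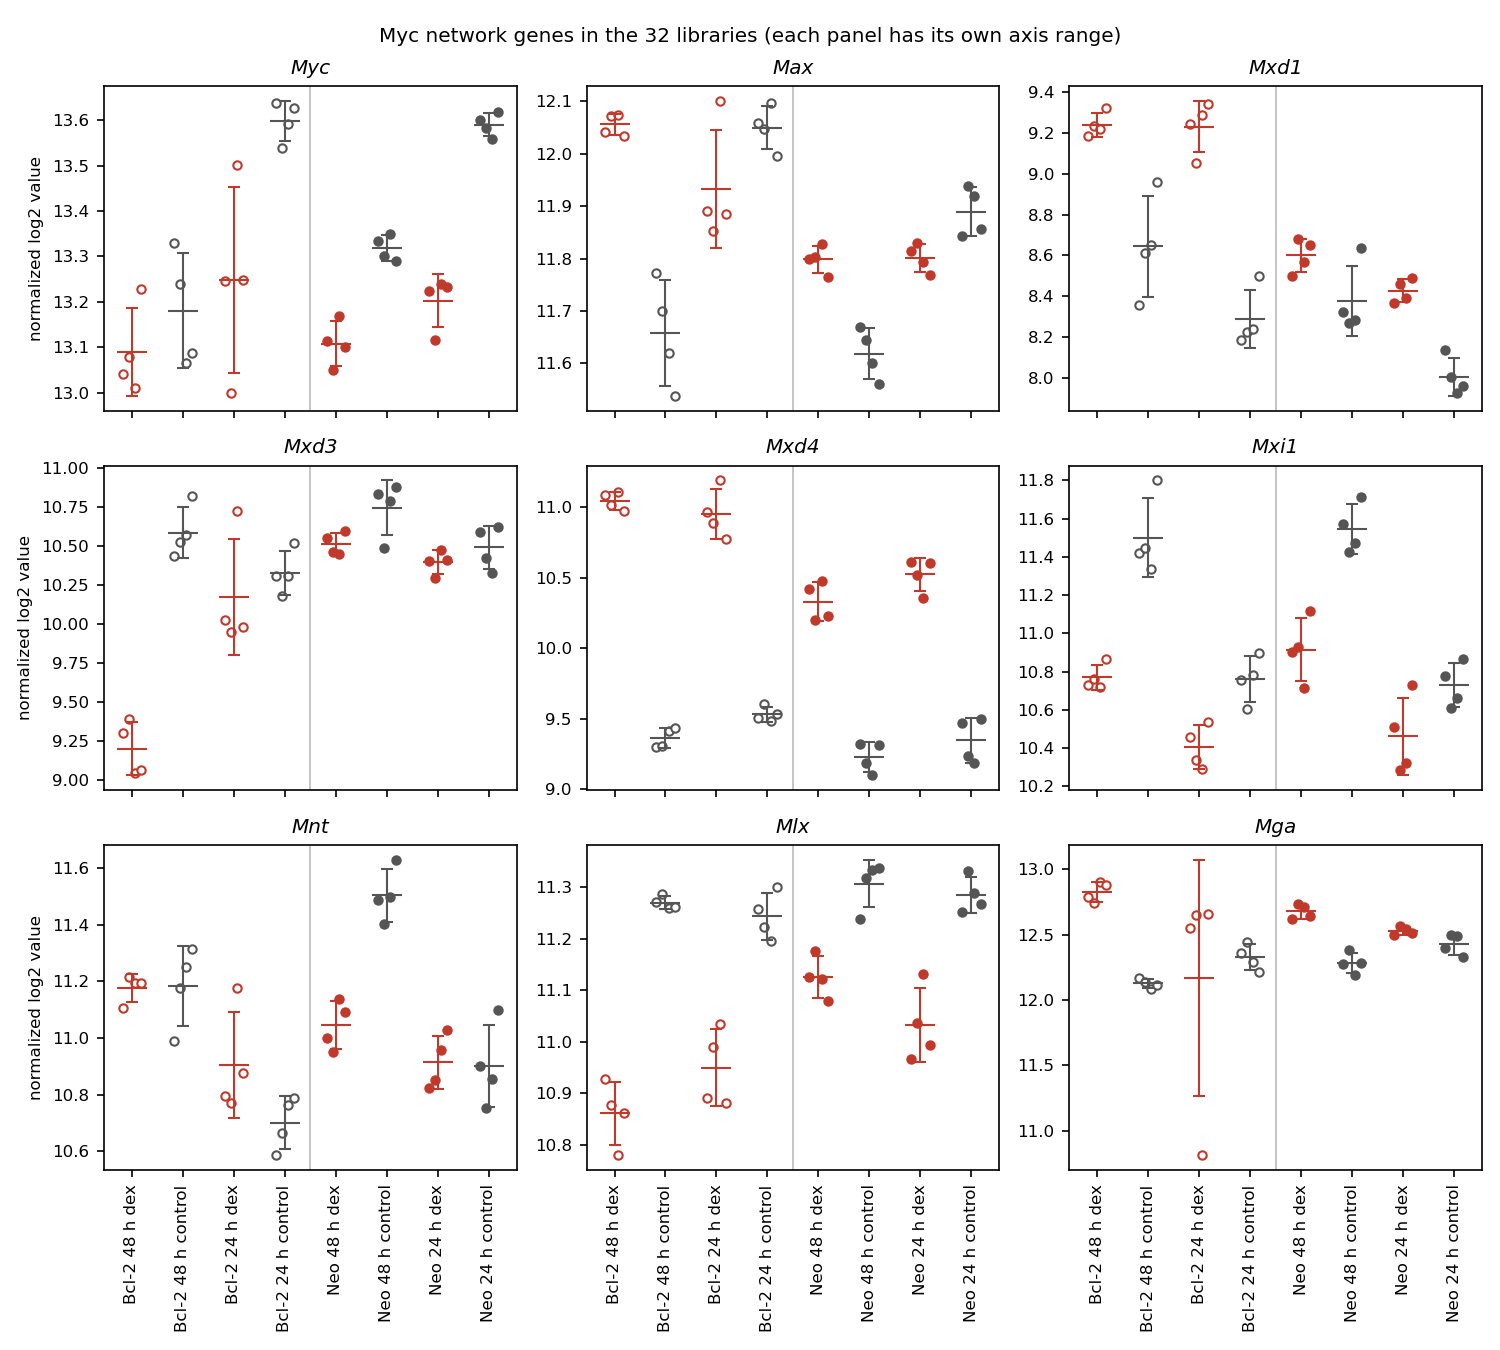
Normalized log2 value of each network gene (y axis, a separate range in each panel) in the 8 groups (x axis), with 1 point for each library (open for S49 (Bcl-2), filled for S49 (Neo), red for dex, grey for control) and bars for the mean and SD of 4 libraries. Mxd4 was at 10.20 or above in all 16 dex libraries and at 9.61 or below in all 16 controls, and in the Mga panel 1 library of S49 (Bcl-2) with 24 h of dex lies at 10.81.

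Across the 9 genes, dex called 7 in S49 (Bcl-2) cells at 48 h, against 69.1% of all genes tested. Of these, 4 rose (33.9% of all genes did) and 3 fell (35.2% did). At 24 h in the same line it called 7, against 67.6%, with 3 that rose (32.5% of all genes) and 4 that fell (35.1%). S49 (Neo) cells had 6 calls at 48 h, against 55.3%, with 2 that rose (27.3%) and 4 that fell (28%). At 24 h they had 5 calls, against 50.5%, with 2 that rose (25%) and 3 that fell (25.5%). Dex thus called about as large a share of the network genes as of all genes. Dex and control libraries of S49 (Bcl-2) cells did not overlap for 7 genes at 48 h (against 73.1% of all genes) and 5 at 24 h (against 53%). Those of S49 (Neo) cells did not overlap for 7 genes at 48 h (against 62.5%) and 6 at 24 h (against 63.5%). Fitted without replicate 3 of S49 (Bcl-2) with 24 h of dex, the counts were 7 and 8 in S49 (Bcl-2) cells at 48 h and 24 h, against 81.1% and 74.9% of all genes, and 9 and 6 in S49 (Neo) cells, against 70.8% and 66.8%.

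**Figure D2:**
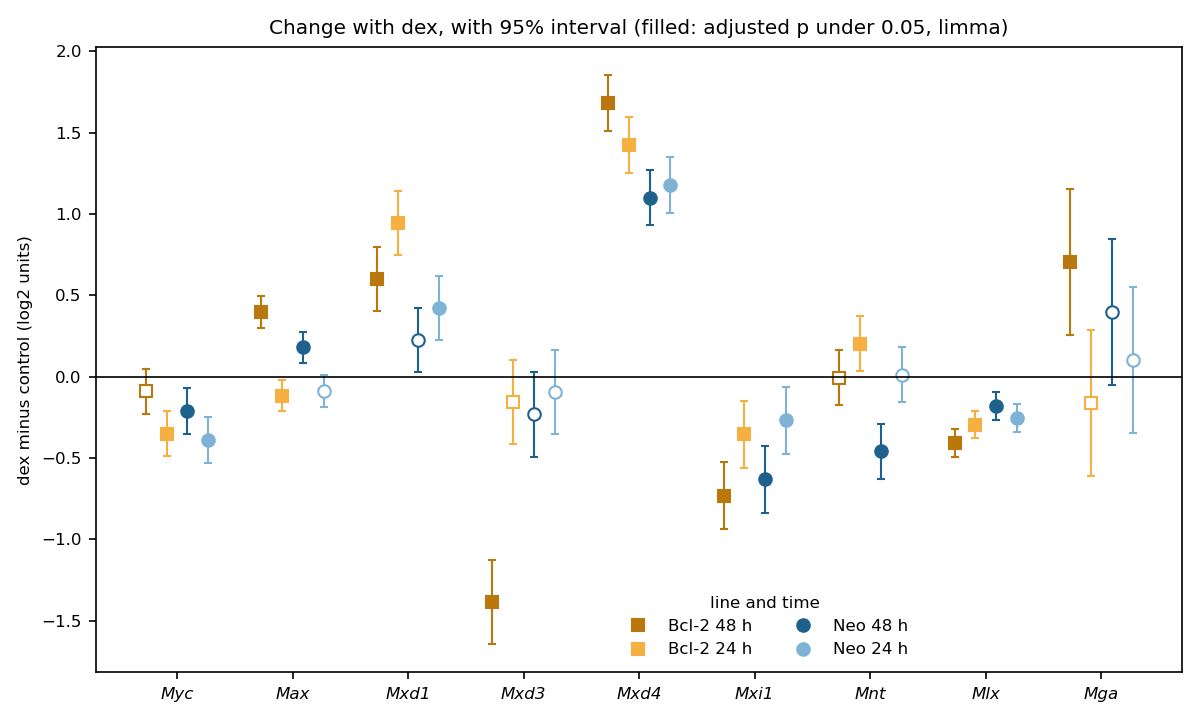
Change with dex (dex minus control, log2 units, y axis) of each network gene (x axis) in S49 (Bcl-2) and S49 (Neo) cells at 48 h and 24 h, with 95% intervals from the limma fit of 32 libraries and filled symbols at an adjusted p under 0.05. Mxd4 stands highest in all 4 comparisons, between 1.10 and 1.68, and Mxd3 at 48 h in S49 (Bcl-2) cells lowest, at -1.38.

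Max, the shared partner, rose with dex at 48 h in both lines. At 48 h in S49 (Bcl-2) cells, Max was at 12.04, 12.07, 12.07 and 12.03 with dex and at 11.77, 11.70, 11.62 and 11.54 in controls, and at 48 h in S49 (Neo) cells it was at 11.80, 11.80, 11.83 and 11.76 with dex and at 11.67, 11.65, 11.60 and 11.56 in controls. Dex libraries were above controls without overlap in both lines at 48 h. Max rose by 0.40 in S49 (Bcl-2) cells (SE 0.05, limma adjusted p = 1.84e-08) and by 0.18 in S49 (Neo) cells (limma adjusted p = 0.00182), and S49 (Bcl-2) exceeded S49 (Neo) by 0.22 (limma adjusted p = 0.00954). At 24 h the changes were -0.12 in S49 (Bcl-2) cells, called although the groups overlapped (limma adjusted p = 0.0303), and -0.09 in S49 (Neo) cells (limma adjusted p = 0.123). The call for S49 (Bcl-2) at 24 h was lost under either rescaling of the libraries (-0.11 with median centring, -0.04 with quantile normalization) and, at -0.09 to -0.11, without control replicate 1 or 3 or dex replicate 1, 2 or 4. Without dex replicate 3, which at 12.10 was above the other 3 at 11.85 to 11.89, the value was -0.17 and remained called, and the value of -0.09 in S49 (Neo) cells was then also called. The change at 48 h exceeded that at 24 h by 0.51 in S49 (Bcl-2) cells and by 0.27 in S49 (Neo) cells (limma adjusted p = 6.84e-07 and 0.00523 in that order). With the libraries centred on their medians, the S49 (Neo) call at 48 h (0.15) and the S49 (Neo) time difference (0.28) were lost. In controls Max fell between the times, with 48 h minus 24 h at -0.39 in S49 (Bcl-2) and -0.27 in S49 (Neo) cells (limma adjusted p = 1.99e-07 and 3.42e-05), so that the 48 h dex libraries of S49 (Bcl-2) cells, at a mean of 12.06 ± 0.02, stood at the level of their 24 h controls, at 12.05 ± 0.04 (SD, n = 4 each).

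Mxd4 had the widest change of the 9 genes in each of the 4 dex comparisons. In S49 (Bcl-2) cells at 48 h it was at 11.08, 11.01, 11.11 and 10.97 with dex and at 9.30, 9.31, 9.41 and 9.43 in controls. At 24 h in these cells it was at 10.97, 10.89, 11.19 and 10.77 with dex and at 9.50, 9.61, 9.49 and 9.53 in controls. All dex libraries of S49 (Bcl-2) cells thus lay more than 1 log2 unit above their controls. In S49 (Neo) cells at 48 h, Mxd4 was at 10.42, 10.20, 10.47 and 10.23 with dex and at 9.32, 9.18, 9.10 and 9.31 in controls. Its 24 h values in S49 (Neo) cells were 10.61, 10.52, 10.36 and 10.60 with dex and 9.47, 9.24, 9.19 and 9.50 in controls. No pair of groups overlapped. Mxd4 rose 3.21-fold at 48 h and 2.68-fold at 24 h in S49 (Bcl-2) cells, by 1.68 and 1.42 log2 units (SE 0.08 each, limma adjusted p = 2.36e-16 and 1.94e-14). The rise in S49 (Neo) cells was 2.14-fold at 48 h and 2.26-fold at 24 h, by 1.10 and 1.18 (SE 0.08 each, limma adjusted p = 4.43e-12 and 1.63e-12). The rise was larger in S49 (Bcl-2) than in S49 (Neo) cells at 48 h, by 0.58 log2 units (SE 0.12, limma adjusted p = 0.000254). At 24 h that difference was 0.24 and not called (limma adjusted p = 0.145). Leaving out any 1 library in turn kept the 4 dex changes called, at 1.05 to 1.70, and the 24 h change in S49 (Bcl-2) cells was 1.34 without replicate 3. Within S49 (Bcl-2) cells the 48 h change was above the 24 h change by 0.26, not called (limma adjusted p = 0.0845), and by 0.34, called, without replicate 3.

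Mxd1, which is induced when blood cells mature, rose with dex in 3 comparisons. At 48 h in S49 (Bcl-2) cells it was at 9.19, 9.24, 9.22 and 9.32 with dex and at 8.36, 8.61, 8.65 and 8.96 in controls. At 24 h it was at 9.24, 9.05, 9.29 and 9.34 with dex and at 8.18, 8.23, 8.24 and 8.50 in controls. Dex libraries of S49 (Bcl-2) cells were therefore all above their controls and overlapped each other between the 2 times. S49 (Neo) cells at 24 h had 8.37, 8.46, 8.39 and 8.49 with dex and 8.14, 8.0, 7.92 and 7.96 in controls, separate as well. At 48 h they had 8.50, 8.68, 8.57 and 8.65 with dex and 8.32, 8.27, 8.28 and 8.63 in controls, where the highest control overlapped. In S49 (Bcl-2) cells, Mxd1 rose by 0.60 after 48 h and by 0.95 after 24 h (SE 0.10 each, limma adjusted p = 3.5e-06 and 1.79e-09), the second at 0.93 without replicate 3. It rose by 0.42 at 24 h in S49 (Neo) cells (limma adjusted p = 0.00055). The 48 h value in S49 (Neo) cells was 0.22 (limma adjusted p = 0.051). It was called without S49 (Neo) 48 h control replicate 4 (0.31), without S49 (Neo) 48 h dex replicate 1 (0.26), and without replicate 3 of S49 (Bcl-2) with 24 h of dex (0.22). S49 (Bcl-2) exceeded S49 (Neo) by 0.38 at 48 h and 0.52 at 24 h (limma adjusted p = 0.0288 and 0.00768). The 48 h call was lost, at 0.28 to 0.35, without S49 (Bcl-2) 48 h control replicate 1, S49 (Bcl-2) 48 h dex replicate 4, S49 (Neo) 48 h control replicate 4 or S49 (Neo) 48 h dex replicate 1, and with quantile normalization (0.26).

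Mxd3, the member of the family that dividing cells express in S phase, changed with dex at 48 h in S49 (Bcl-2) cells. There it was at 9.30, 9.39, 9.05 and 9.07 with dex and at 10.44, 10.52, 10.57 and 10.82 in controls, without overlap and with every dex library at least 1 log2 unit below every control. The fall was 1.38 log2 units, or 2.61-fold (SE 0.13, limma adjusted p = 1.23e-10). In the other 3 comparisons the 2 groups overlapped. At 24 h in S49 (Bcl-2) cells, Mxd3 was at 10.03, 9.95, 10.73 and 9.98 with dex and at 10.31, 10.18, 10.31 and 10.52 in controls. Replicate 3 was again the library apart, and the difference was -0.16 with it (not called) and -0.34 without it (called). S49 (Neo) cells had Mxd3 at 10.52 ± 0.07 with dex and 10.75 ± 0.17 in controls at 48 h, and at 10.40 ± 0.08 with dex and 10.49 ± 0.14 in controls at 24 h (SD, n = 4 each). The S49 (Neo) differences were -0.23 and -0.09, not called (limma adjusted p = 0.122 and 0.573). The 48 h one was called without S49 (Neo) 48 h control replicate 2 (-0.32) and without replicate 3 of S49 (Bcl-2) with 24 h of dex (-0.23). The change at 48 h in S49 (Bcl-2) cells was lower than that in S49 (Neo) cells by 1.15 (limma adjusted p = 8.1e-06). It was lower than the 24 h change in its own line by 1.23, or 1.04 without replicate 3 (limma adjusted p = 4.04e-06 with all libraries).

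Mxi1, the remaining member of the family, went down with dex in every comparison and up with time in culture. At 48 h it was at 10.73, 10.76, 10.72 and 10.86 with dex and at 11.42, 11.44, 11.34 and 11.80 in controls of S49 (Bcl-2) cells. S49 (Neo) libraries at 48 h were at 10.90, 10.93, 10.71 and 11.11 with dex and at 11.57, 11.42, 11.47 and 11.71 in controls. Neither pair overlapped. Mxi1 fell by 0.73 after 48 h and by 0.35 after 24 h of dex in S49 (Bcl-2) cells (SE 0.10 each, limma adjusted p = 2.68e-07 and 0.00298), and the 24 h change was -0.32, still called, without replicate 3. The fall in S49 (Neo) cells was 0.63 at 48 h and, with overlapping groups, 0.27 at 24 h (limma adjusted p = 4.76e-06 and 0.0275). This 24 h call in S49 (Neo) cells was lost, at -0.21 to -0.25, without control replicate 1 or 4 or dex replicate 2 or 3. The 48 h controls stood above the 24 h controls by 0.74 in S49 (Bcl-2) and 0.82 in S49 (Neo) cells (limma adjusted p = 1.04e-06 and 4.66e-07). With dex, the S49 (Bcl-2) libraries at 48 h, at 10.77 ± 0.07, were at the level of their 24 h controls, at 10.76 ± 0.12 (SD, n = 4 each).

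Per length of exon the 4 Mxd family transcripts can be summed and their shares set side by side. Lengths were the union of exons in GENCODE M21, 2.37 kb for Mxd3, 6.82 kb for Mxi1, 7.07 kb for Mxd1 and 8.48 kb for Mxd4. At 48 h in S49 (Bcl-2) cells, Mxd3 made up 29.7% ± 2.69 of the summed level per kb with dex and 53.7% ± 1.16 in controls, and Mxd4 made up 29.6% ± 1.68 with dex and 6.44% ± 0.55 in controls (SD, n = 4 each). Mxi1 made up 30.5% ± 1.77 with dex and 35.2% ± 1.68 in controls, and Mxd1 10.2% ± 0.59 with dex and 4.69% ± 0.34 in controls, so that Mxd3, Mxd4 and Mxi1 had about equal shares with dex. At 24 h in these cells the share of Mxd4 was 23.2% ± 1.53 with dex (23.6% ± 1.51 without replicate 3, n = 3) and 9.43% ± 0.99 in controls. Mxd4 in S49 (Neo) cells made up 13.8% ± 1.70 with dex and 5.53% ± 0.46 in controls at 48 h, and 17.4% ± 1.29 with dex and 7.92% ± 0.17 in controls at 24 h. Mxd3 remained the most abundant of the 4 per length in every group of S49 (Neo) cells, at a mean share of 55.7% and 57.0% with dex and 56.6% and 62.7% in controls (48 h and 24 h in each case). The log2 level per kb of Myc over the summed Mxd family was 1.93 ± 0.11 with dex and 1.5 ± 0.26 in controls at 48 h in S49 (Bcl-2) cells, and the groups did not overlap (1.86 to 2.09 with dex, 1.16 to 1.78 in controls). At 24 h it was lower with dex, at 1.83 ± 0.09 (1.85 ± 0.10 without replicate 3) against 2.30 ± 0.09 in S49 (Bcl-2) controls and at 1.79 ± 0.04 against 2.23 ± 0.10 in S49 (Neo) controls. At 48 h in S49 (Neo) cells it was 1.55 ± 0.09 with dex and 1.55 ± 0.15 in controls. These are levels of RNA per length and carry no test, since the genes summed were chosen with their changes known. The shares and the ratio rest on the lengths, which join all annotated exons of a gene, and which transcripts the cells express was not tested. Not divided by length, Mxd4 was at 11.04, Mxi1 at 10.77 and Mxd3 at 9.20 with dex at 48 h in S49 (Bcl-2) cells.

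**Figure D3:**
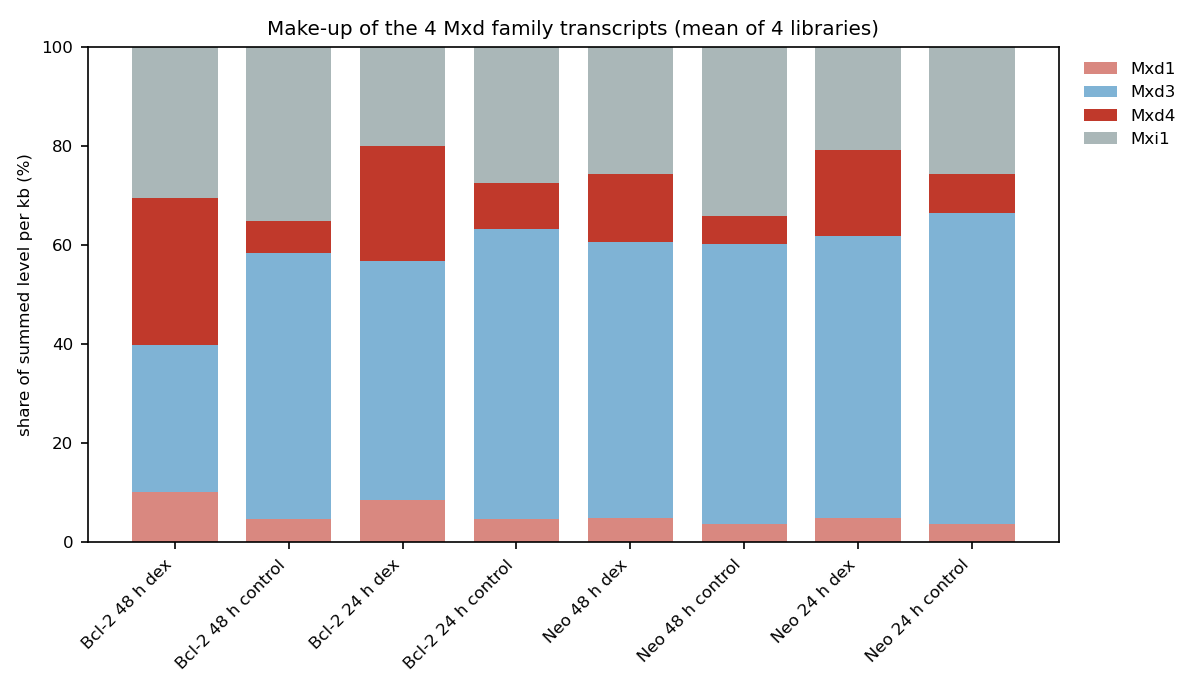
Share of each of the 4 Mxd family genes in their summed level per kb (y axis, %, mean of 4 libraries) in the 8 groups (x axis). The Mxd4 segment is larger with dex than in the matched controls in all 4 pairs, at 29.6% with dex and 6.44% in controls at 48 h in S49 (Bcl-2) cells, where the Mxd3 segment is 29.7% with dex and 53.7% in controls and the Mxi1 segment 30.5% with dex and 35.2% in controls.

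Mnt, the broadly expressed repressor, fell at 48 h in S49 (Neo) cells, and its 48 h change differed between the lines. In S49 (Bcl-2) cells at 48 h it was at 11.10, 11.21, 11.19 and 11.20 with dex and at 10.99, 11.18, 11.25 and 11.32 in controls, overlapping, with a difference of -0.01 (95% interval -0.17 to 0.16, limma adjusted p = 0.956). In S49 (Neo) cells at 48 h it was at 11.00, 10.95, 11.14 and 11.09 with dex and at 11.49, 11.40, 11.50 and 11.63 in controls, without overlap, and it fell by 0.46 (SE 0.08, limma adjusted p = 2.41e-05). The difference between the lines was 0.45 (S49 (Bcl-2) minus S49 (Neo), limma adjusted p = 0.00249). The 48 h controls of the lines also differed, with S49 (Bcl-2) below S49 (Neo) by 0.32 (limma adjusted p = 0.00357) and without overlap. At 24 h the change was 0.20 in S49 (Bcl-2) cells, called with overlapping groups (limma adjusted p = 0.0307), and 0.01 in S49 (Neo) cells (limma adjusted p = 0.915). The 24 h call was lost without S49 (Bcl-2) 24 h control replicate 1 (0.17) or 2 (0.19) and without dex replicate 3 (0.11). With 48 h in place of 24 h of culture, controls were higher by 0.48 in S49 (Bcl-2) and 0.60 in S49 (Neo) cells (limma adjusted p = 2.22e-05 and 1.59e-06). The 24 h call in S49 (Bcl-2) cells was also lost under either rescaling (0.21 with median centring, 0.20 with quantile normalization). The values near 0, for S49 (Neo) at 24 h and S49 (Bcl-2) at 48 h, changed sign under both.

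Mlx fell in all 4 comparisons and had a narrow spread. Dex and control groups did not overlap in any of them. S49 (Bcl-2) cells had Mlx at 10.86 ± 0.06 with dex and 11.27 ± 0.01 in controls at 48 h, and at 10.95 ± 0.08 with dex and 11.24 ± 0.05 in controls at 24 h (SD, n = 4 each). S49 (Neo) cells had Mlx at 11.13 ± 0.04 with dex and 11.31 ± 0.05 in controls at 48 h, and at 11.03 ± 0.07 with dex and 11.28 ± 0.03 in controls at 24 h. The 4 control groups had the highest levels, and each overlapped the control group next to it in order. The falls were 0.41 and 0.29 in S49 (Bcl-2) cells (48 h and 24 h, SE 0.04 each, limma adjusted p = 1.14e-09 and 6.02e-07) and 0.18 and 0.25 in S49 (Neo) cells (limma adjusted p = 0.000514 and 1e-05). Without dex replicate 3 the 24 h value in S49 (Bcl-2) cells was -0.32. At 48 h the change in S49 (Bcl-2) cells was lower than in S49 (Neo) cells by 0.23 (limma adjusted p = 0.00273), a call lost with median centring (-0.18) and quantile normalization (-0.18). Of the exon bases of Mlx, 19.3% lie opposite exons of Psmc3ip on the other strand. For Mxd3, Mxd4 and Mxi1 the share opposite another gene was 4.43%, 6.06% and 2.84%, and for the other 5 genes it was 0. Whether strand was used in counting is not stated, so reads there cannot be assigned to 1 strand.

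Mga rose at 48 h in S49 (Bcl-2) cells, and its 24 h value there rests on 1 library. After 24 h of dex S49 (Bcl-2) cells had Mga at 12.55, 12.65, 10.81 and 12.66, against 12.36, 12.45, 12.29 and 12.22 in their controls. Replicate 3 lay below all controls and the other 3 dex libraries above all of them. The difference was -0.16 with it, not called (limma adjusted p = 0.527), and 0.29 without it, called. At 48 h in these cells Mga was at 12.79, 12.74, 12.91 and 12.88 with dex and at 12.17, 12.14, 12.08 and 12.11 in controls, a rise of 0.70 (SE 0.22, limma adjusted p = 0.00571) without overlap. In S49 (Neo) cells at 48 h it was at 12.62, 12.73, 12.72 and 12.64 with dex and at 12.28, 12.38, 12.19 and 12.28 in controls, also without overlap. The difference there of 0.39 was not called with all libraries (limma adjusted p = 0.129) and was called without replicate 3. At 24 h in S49 (Neo) cells the dex libraries, at 12.53 ± 0.03, were just above the controls, at 12.43 ± 0.08 (SD, n = 4 each), with a difference of 0.10 that was not called (limma adjusted p = 0.732). In S49 (Bcl-2) cells the 48 h change was above the 24 h change by 0.86 (limma adjusted p = 0.0284), a value of 0.41 without replicate 3. This call was lost without S49 (Bcl-2) 24 h control replicate 2 (0.82). Between the lines, the difference of the dex change (S49 (Bcl-2) minus S49 (Neo)) was 0.31 at 48 h and -0.26 at 24 h, neither called (limma adjusted p = 0.464 and 0.572). Without replicate 3 these were 0.31 and 0.19, both called.

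Set side by side, the dex changes of the 9 genes differed between the lines for 6 genes at 48 h, against 40.8% of all genes tested. Of these 4 were higher in S49 (Bcl-2) cells (19.9% of all genes were) and 2 lower (20.9%). At 24 h they differed for 1 gene, Mxd1, which was higher, against 19.5% of all genes, with 11% higher and 8.51% lower. The 48 h genes were Max, Mxd1, Mxd4 and Mnt with higher values in S49 (Bcl-2) cells and Mxd3 and Mlx with lower ones. The paper reports that S49 (Neo) cells lost viability and had degraded DNA after the longer time with dex. In S49 (Bcl-2) cells it reports no significant change in membrane integrity, and a block of the cell cycle. What part of the line differences above follows cell death, the introduced gene or other differences between the lines was not tested. The dex change at 48 h differed from that at 24 h for 6 genes in S49 (Bcl-2) cells (38.4% of all genes). It was higher at 48 h for Myc, Max and Mga (17.1%) and lower for Mxd1, Mxd3 and Mxi1 (21.3%). In S49 (Neo) cells it differed for 2 genes (19.2%), higher for Max (8.72%) and lower for Mnt (10.5%). These are differences of changes, not of levels with dex. In S49 (Bcl-2) cells, the means with dex at 48 h and 24 h were 13.09 and 13.25 for Myc and 12.06 and 11.93 for Max. They were 12.83 and 12.17 for Mga and 9.24 and 9.23 for Mxd1. For Mxd3 they were 9.20 and 10.17, and for Mxi1 10.77 and 10.40, with all libraries. The time differences of Mxd1 (-0.35, limma adjusted p = 0.0451) and Mxi1 (-0.38, limma adjusted p = 0.0369) in S49 (Bcl-2) cells were weak. That of Mxd1 was lost, at -0.24 to -0.36, on leaving out 24 h control replicate 1, 2 or 3, 24 h dex replicate 1 or 4, 48 h control replicate 2, 3 or 4, or 48 h dex replicate 1, 2 or 3, and with median centring (-0.33) or quantile normalization (-0.30). That of Mxi1 was lost, at -0.28 to -0.38, without 24 h control replicate 1 or 2, 24 h dex replicate 1 or 4, 48 h control replicate 4, or 48 h dex replicate 1, 2 or 3. The time difference of Mnt in S49 (Neo) cells was -0.47 (limma adjusted p = 0.00485). That of Mxi1 in these cells, -0.36, was not called (limma adjusted p = 0.0741), but was called, at -0.36 to -0.43, without S49 (Neo) 24 h control replicate 4, S49 (Neo) 24 h dex replicate 2, S49 (Neo) 48 h dex replicate 4 or replicate 3 of S49 (Bcl-2) with 24 h of dex. Without the last of these libraries, the lines differed for 7 genes at 48 h and 2 at 24 h (against 59.5% and 35.9%), and the times for 7 in S49 (Bcl-2) and 4 in S49 (Neo) cells (against 53.3% and 39.8%).

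**Figure D4:**
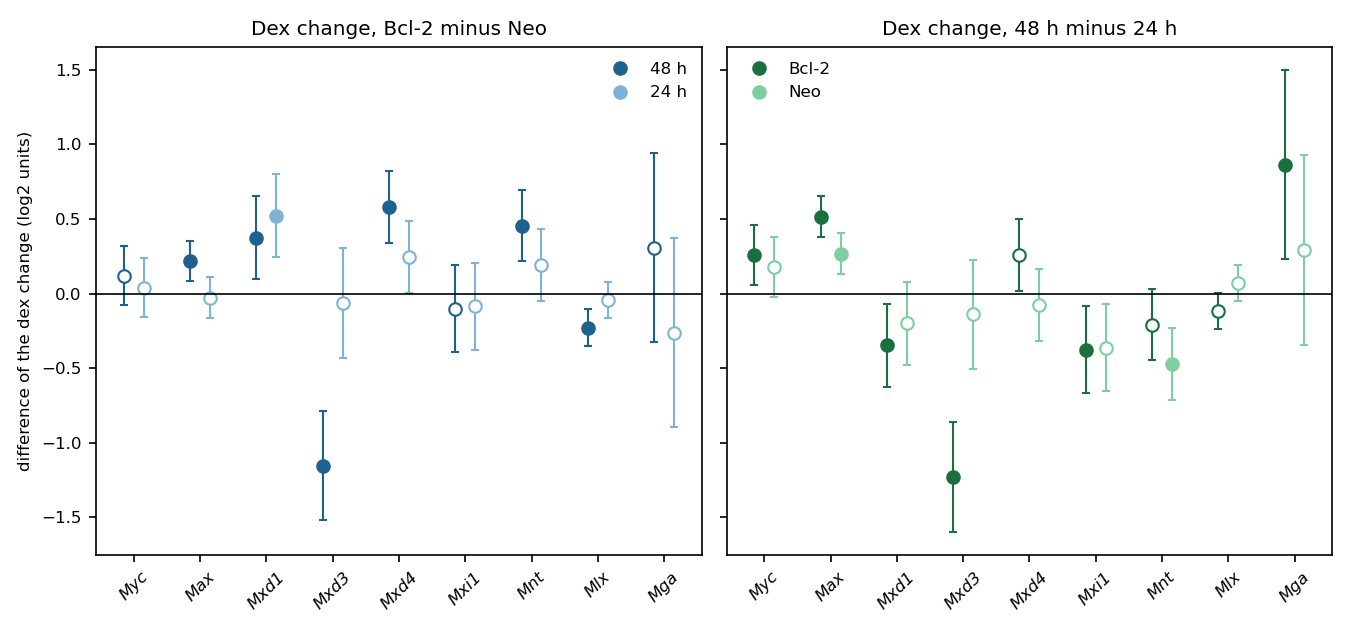
Difference of the dex change (y axis, log2 units, 95% intervals from limma, filled at an adjusted p under 0.05) for each network gene (x axis), S49 (Bcl-2) minus S49 (Neo) on the left and 48 h minus 24 h on the right. Mxd3 has the lowest value in both panels, at -1.15 between lines at 48 h and -1.23 between times in S49 (Bcl-2) cells, and the Mga intervals are the widest.

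Control cells of the 2 lines differed for 2 of the 9 genes at 48 h, Mxd1 higher in S49 (Bcl-2) (against 11.7% of all genes tested) and Mnt lower (against 14.2%, with 25.9% in either direction). At 24 h 2 were higher in S49 (Bcl-2), Mxd1 and Max (against 12.9%), and 0 lower by limma's adjusted p (against 14%, with 26.9% in either direction). Mxd1 was higher in S49 (Bcl-2) controls at both times, by 0.27 at 48 h and 0.28 at 24 h (limma adjusted p = 0.0403 and 0.0287). The 48 h call of Mxd1 was lost, at 0.16 to 0.28, without S49 (Bcl-2) control replicate 2, 3 or 4 or S49 (Neo) control replicate 1, 2 or 3. The 24 h call was lost, at 0.21 to 0.28, without S49 (Bcl-2) control replicate 4 or S49 (Neo) control replicate 2, 3 or 4. Max was higher in S49 (Bcl-2) controls at 24 h by 0.16 (limma adjusted p = 0.0107), a call lost with median centring (0.16) and quantile normalization (0.15), the second of which also ended the 24 h call of Mxd1 (0.26). The Mnt difference at 24 h was -0.20 and not called (limma adjusted p = 0.0715), and was called without S49 (Neo) control replicate 2 (-0.25) or without the library apart (-0.20). Control groups of the lines did not overlap for 2 of the 9 genes at 48 h and 2 at 24 h, against 32.5% and 42.3% of all genes. Without the library apart, 4 genes at 48 h and 4 at 24 h were called (against 42.5% and 43.4%). With time in culture, 5 of the 9 genes changed in the controls of each line (Mxd1, Mxi1 and Mnt higher at 48 h, Myc and Max lower), against 49.5% of all genes in S49 (Bcl-2) cells (25.9% higher, 23.6% lower) and 46.8% in S49 (Neo) cells (25.1% higher, 21.7% lower). Mxd1 was higher at 48 h than at 24 h by 0.36 in S49 (Bcl-2) controls and 0.37 in S49 (Neo) controls (limma adjusted p = 0.00299 and 0.00228), calls lost with quantile normalization (0.16 and 0.15), as was that of Myc in S49 (Neo) controls (-0.18). The 48 h and 24 h controls did not overlap for 6 genes in S49 (Bcl-2) and 5 in S49 (Neo) cells, against 59.9% and 57.4% of all genes. For Mxd3 the controls at 48 h were higher by 0.26 in each line, not called (limma adjusted p = 0.0914 and 0.1). Those of S49 (Bcl-2) were called without its 24 h control replicate 4 (0.32), those of S49 (Neo) without its 48 h control replicate 2 (0.34), and both without the library apart. Without that library 8 genes were called in S49 (Bcl-2) and 7 in S49 (Neo) controls, against 67.4% and 64.7% of all genes.

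Other genes of the network, written as lists with earlier results of these data known, were read beside the 9. Of 6 further Myc, Max and Mlx network genes 3 passed the filter. Mycn, Mycl and Mlxipl, the gene of ChREBP, were below it. Mlxip, the gene of MondoA, which pairs with Mlx, rose by 0.95 and 0.63 in S49 (Bcl-2) cells and by 0.62 and 0.46 in S49 (Neo) cells (48 h and 24 h in each case, limma adjusted p of 1.26e-10 or less). Mycbp, which encodes a small protein that binds Myc, had changes of -1.01 and -0.74 in S49 (Bcl-2) and -0.47 and -0.53 in S49 (Neo) cells, all called. Mycbp2 was called at 24 h in S49 (Neo) cells, at -0.19. Txnip, a glucose-induced target of MondoA and Mlx, rose by 1.08 and 1.82 in S49 (Bcl-2) and by 1.02 and 1.45 in S49 (Neo) cells in the same order. Klf10, the other of the 5 listed Mlx targets that was tested, fell by 0.23 and 0.30 in S49 (Bcl-2) and by 0.43 and 0.22 in S49 (Neo) cells. Mlx itself fell in all 4 comparisons.

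Most of the genes that Myc is known to raise fell with dex in 3 of the 4 comparisons, the exception being S49 (Neo) cells at 48 h. Of 40 listed, 39 were tested. At 48 h in S49 (Bcl-2) cells 2 rose and 30 fell, against 33.9% and 35.2% of all genes, and the median change was -0.64, against -0.01 over all genes. At 24 h 1 rose and 34 fell, against 32.5% and 35.1%, and the median was -0.64, against -0.04. The S49 (Neo) counts at 48 h were 5 risen and 14 fallen, against 27.3% and 28%, with a median of -0.14 against -0.0024. Those at 24 h were 1 risen and 29 fallen, against 25% and 25.5%, with a median of -0.40 against -0.02. Without dex replicate 3 of S49 (Bcl-2) at 24 h, S49 (Bcl-2) cells had 2 risen and 32 fallen at 48 h and 1 and 37 at 24 h, and S49 (Neo) cells had 6 and 19 at 48 h and 1 and 32 at 24 h. In that fit 81.1% and 74.9% of all genes were called in either direction in S49 (Bcl-2) cells (48 h and 24 h). In S49 (Neo) cells 70.8% and 66.8% were. At 48 h the dex change was lower in S49 (Bcl-2) than in S49 (Neo) cells for 24 of the 39 (20.9% of all genes) and higher for 0 by limma's adjusted p (19.9%). Without the library apart it was lower for 33, where 59.5% of all genes were called in either direction. Of the 39, 31 were lower at 48 h than at 24 h in S49 (Bcl-2) controls (23.6% of all genes) and 30 in S49 (Neo) controls (21.7%), and 3 were higher in each (25.9% and 25.1%). Cdc25a, a phosphatase that starts the cell cycle, fell by 1.27 at 48 h in S49 (Bcl-2) cells. At the same time Ldha, lactate dehydrogenase, changed by -1.90, Shmt2, of mitochondrial serine metabolism, by -1.4, Slc7a5, an amino acid carrier, by -1.21, and Ran, a nuclear transport GTPase, by -0.84 (limma adjusted p of 1.2e-12 or less). Tert, the catalytic subunit of telomerase, went the other way and rose in all 4 comparisons, by 1.07 and 0.68 in S49 (Bcl-2) cells and by 1.89 and 1.28 in S49 (Neo) cells (48 h and 24 h in each case). What part of these changes follows Myc was not tested.

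**Figure D5:**
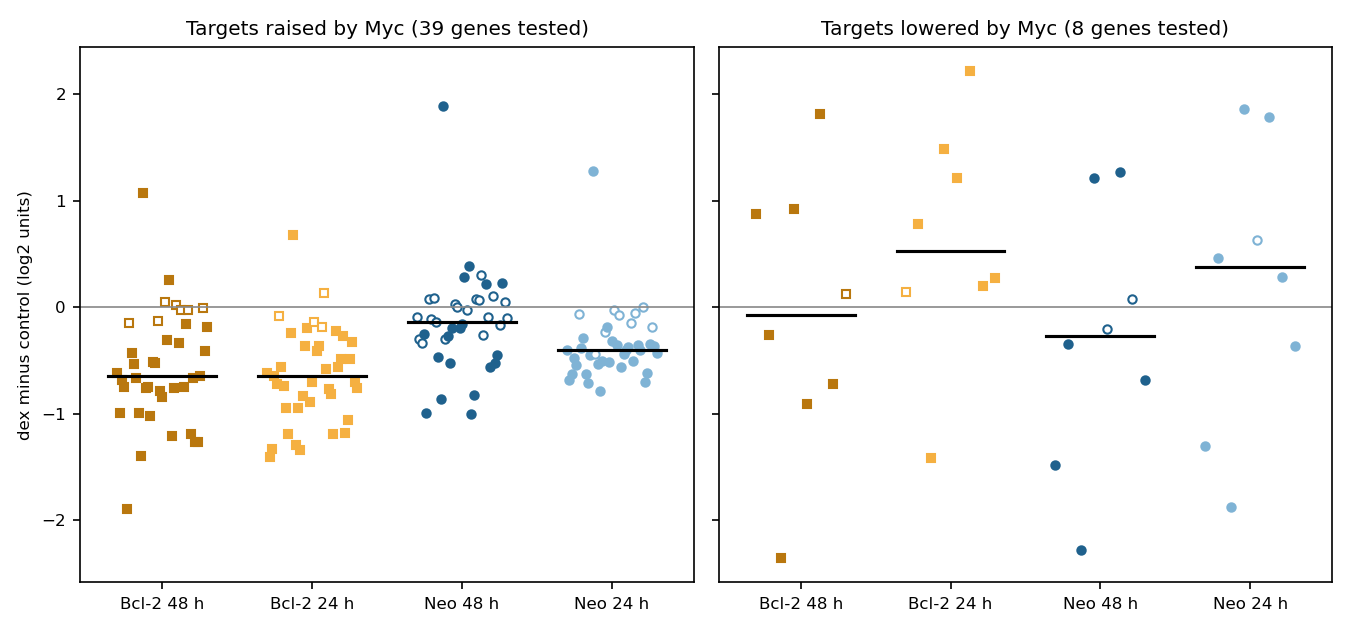
Change with dex (dex minus control, log2 units, y axis) of 39 tested genes that Myc raises (left) and 8 that it lowers (right) in the 4 comparisons (x axis), with 1 symbol for each gene, filled at a limma adjusted p under 0.05, and a bar at the median. The left medians are -0.64 and -0.64 in S49 (Bcl-2) cells and -0.14 and -0.40 in S49 (Neo) cells at 48 h and 24 h, with Tert the highest point in each.

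Genes that Myc is known to lower did not share a direction. Of 12 listed, 8 were tested. At 48 h 3 rose and 4 fell in S49 (Bcl-2) cells (33.9% and 35.2% of all genes), and 2 rose and 4 fell in S49 (Neo) cells (27.3% and 28%). At 24 h 6 rose and 1 fell in S49 (Bcl-2) cells (32.5% and 35.1%), and 4 rose and 3 fell in S49 (Neo) cells (25% and 25.5%). Without replicate 3, 4 rose and 1 fell in S49 (Bcl-2) cells at 24 h, where 74.9% of all genes were called in either direction. Medians at 48 h were -0.07 in S49 (Bcl-2) and -0.27 in S49 (Neo) cells, and at 24 h 0.53 and 0.37 in the same order. Btg1, an antiproliferative gene, rose in all 4 comparisons, by 1.82 and 2.21 in S49 (Bcl-2) and 1.27 and 1.78 in S49 (Neo) cells (48 h and 24 h). Gadd45a, a stress gene, fell in all 4, with changes of -2.36 and -1.42 in S49 (Bcl-2) and -2.28 and -1.88 in S49 (Neo) cells. Cdkn1a, the p21 cell cycle inhibitor, rose by 0.87 at 48 h in S49 (Bcl-2) cells and fell by 1.48 at 48 h in S49 (Neo) cells. In controls 7 of the 8 were higher at 48 h than at 24 h in each line, against 25.9% of all genes in S49 (Bcl-2) and 25.1% in S49 (Neo) cells.

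Partners of the network proteins were mixed. Their counts are to be read against the shares of all genes that rose and fell, for S49 (Bcl-2) cells 33.9% and 35.2% at 48 h and 32.5% and 35.1% at 24 h, and for S49 (Neo) cells 27.3% and 28% at 48 h and 25% and 25.5% at 24 h. Of 14 genes of the Sin3 corepressor, which Mxd proteins and Mnt recruit, 2 rose and 6 fell at 48 h and 2 rose and 8 fell at 24 h in S49 (Bcl-2) cells. S49 (Neo) cells had 3 that rose and 4 that fell at 48 h, and 3 and 3 at 24 h. Sin3a, the scaffold, fell by 0.69 and Sap30, a bridging subunit, rose by 1.4 at 48 h in S49 (Bcl-2) cells. Sap30 rose in the other comparisons too, by 1.76 at 24 h in S49 (Bcl-2) and by 1.31 and 1.87 at 48 h and 24 h in S49 (Neo) cells. Of 12 partners of Mga and Max in the Polycomb complex, 4 rose and 6 fell at 48 h in S49 (Bcl-2) cells, where Ring1 rose by 0.97 and the deacetylase Hdac1 fell by 0.52, and 4 rose and 1 fell in S49 (Neo) cells. Their counts at 24 h were 3 rose and 8 fell in S49 (Bcl-2) and 3 rose and 3 fell in S49 (Neo) cells. Of 21 tested genes for cofactors and stability of Myc, 1 rose and 10 fell at 48 h and 0 rose and 13 fell at 24 h in S49 (Bcl-2) cells, and 2 rose and 7 fell at 48 h and 1 rose and 9 fell at 24 h in S49 (Neo) cells. Aurka and Skp2, a kinase and a ubiquitin ligase subunit that act on the Myc protein, fell by 1.54 and 1.48 in S49 (Bcl-2) cells at 48 h. Ruvbl1, an ATPase of Myc's chromatin cofactors, rose by 1.23 and 0.66 in S49 (Neo) cells and was at -0.03 and -0.14, not called, in S49 (Bcl-2) cells (48 h and 24 h). The library apart enters the S49 (Neo) comparisons only through the shared spread. Without it, the counts risen and fallen in S49 (Neo) cells were 4 and 6 at 48 h and 5 and 7 at 24 h for Sin3, 5 and 4 at 48 h and 3 and 7 at 24 h for the Polycomb partners, and 2 and 10 at 48 h and 1 and 15 at 24 h for the cofactors. Those of S49 (Bcl-2) cells were 3 and 8 at both times for Sin3, 4 and 8 at both times for the Polycomb partners, and 1 and 13 at 48 h and 0 and 16 at 24 h for the cofactors. The share of all genes called in either direction was then 70.8% and 66.8% in S49 (Neo) cells (48 h and 24 h). In S49 (Bcl-2) cells it was 81.1% and 74.9%.

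Over the 32 libraries, the genes whose values followed Myc most closely were Smyd2 (Pearson r 0.92), Ncdn (0.91), Aprt (0.91), Nomo1 (0.91) and Ubqln4 (0.91), out of 9154 other genes with a mean of at least 6.66. Those running most opposite were Rbms1 (-0.91), Trim12c (-0.90), Dctn4 (-0.90), Sat1 (-0.89) and Nsd3 (-0.89). Of the other network genes, Mlx (0.54) had the highest r with Myc and Mxd1 (-0.61) the lowest, with Max at 0.30, Mxd3 at 0.34, Mxd4 at -0.54, Mxi1 at -0.09, Mnt at -0.34 and Mga at -0.41. For deviations from the group means the order was another. There r was 0.61 for Max, 0.40 for Mxd3, 0.29 for Mnt, 0.19 for Mxd4 and 0.14 for Mlx. It was 0.004 for Mxi1, -0.04 for Mxd1 and -0.62 for Mga, with the library apart included. These values describe 32 points that share 8 groups and carry no test. Per kb of exon, Myc had the highest level of the 9 genes in the 24 h controls, at a mean log2 level of 12.15, followed by Mlx at 10.27 and Max at 10.12. Mxd3 (9.17), Mnt (8.59), Mga (8.44) and Mxi1 (7.97) came next, and Mxd4 (6.35) and Mxd1 (5.32) were the lowest. The 2 antagonists with called rises under dex in both lines were thus those with the lowest level per kb in untreated cells. Not divided by length, the 9 genes lay between 7.92 and 13.64 in the 32 libraries.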

How the data were processed

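Poly(A) RNA of 32 libraries (8 groups of 4, grouped by the sample labels) was sequenced as paired 75-base reads. Per the study's methods and the labels, the authors kept reads with a mean base quality over 20 and removed adapters in Trim Galore 0.4. STAR 2.5.1 placed them on mm10, featureCounts (subread 1.4.6) counted them per gene, and the authors normalized the counts with DESeq2. The deposited values are normalized log2 values. The offset of the log, the annotation and the use of strand are not given in the sources used here. Counts are not in the file, so the depth of each library is unknown and its precision shows only in the spread of replicates. All columns matched a sample (0 did not).

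Genes with a mean log2 value of at least 3.46 (log2 of 10 + 1) were tested, 11562 of 24538. This threshold is on the deposited scale and is not a number of reads. Limma 3.58.1 (R 4.3.3) fitted 8 group means over all 32 libraries with a trended prior, and a gene was called at a Benjamini-Hochberg adjusted p under 0.05 over all genes tested. Adjusted p-values in the text are from this fit unless said otherwise. The fit was tested on simulated data. The 9 genes and the lists were chosen with earlier results of these data known. All 9 genes are named, and from each list those with the smallest p in a comparison. Tert, highest of its list, was among them. Levels per kb used the union of exons in GENCODE M21 on mm10. Alternatives were a stricter filter and none, median centring, quantile normalization, no trend, array weights, a fit within the 16 libraries of a line, the unadjusted p under 0.01 of the study's methods, the replicate number as a block, and leaving out each library. Leaving out replicate 3 of S49 (Bcl-2) with 24 h of dex in comparisons that do not contain it was added after seeing the data. No source ties replicate numbers to a day or culture. At 24 h in S49 (Bcl-2) cells all 4 same-numbered dex and control libraries correlated above 0.1 in their deviations from the group means. In the other 3 dex comparisons 2 or 3 of the 4 pairs did. The main fit used no pairing in any comparison, and pairing by number was run only as the block alternative.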

Additional observations from a re-analysis of the deposited data

Results flagged for a closer look

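In 6 of 72 groups of 4 libraries (9 genes in 8 groups), 1 library lay far from the other 3, where chance gives about 1 in 20. Of these, 3 were in replicate 3 of S49 (Bcl-2) cells with 24 h of dex, with Max at 12.10 (the others at 11.85 to 11.89), Mga at 10.81 (12.55 to 12.66) and Mxd3 at 10.73 (9.95 to 10.03). Mxd1 was at 8.50 in replicate 4 of the S49 (Bcl-2) 24 h controls (the others at 8.18 to 8.24) and at 8.63 in replicate 4 of the S49 (Neo) 48 h controls (8.27 to 8.32). Myc was at 13.12 in replicate 2 of S49 (Neo) cells with 24 h of dex (13.22 to 13.24).

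The dex change differed between lines or times for 15 values by limma's test of the difference. Of all genes tested, 40.8% differed between lines at 48 h and 19.5% at 24 h. Between times, 38.4% differed in S49 (Bcl-2) and 19.2% in S49 (Neo) cells. S49 (Bcl-2) minus S49 (Neo) at 48 h was 0.58 for Mxd4, 0.45 for Mnt, 0.38 for Mxd1, 0.22 for Max, -0.23 for Mlx and -1.15 for Mxd3, and at 24 h it was 0.52 for Mxd1. For 48 h minus 24 h, the values in S49 (Bcl-2) cells were 0.86 for Mga, 0.51 for Max, 0.26 for Myc, -0.35 for Mxd1, -0.38 for Mxi1 and -1.23 for Mxd3, and in S49 (Neo) cells they were 0.27 for Max and -0.47 for Mnt. The Mga value was 0.41 without replicate 3 of S49 (Bcl-2) with 24 h of dex.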

How the results depend on the processing

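The 4 dex rises of Mxd4 and falls of Mlx, the 48 h falls of Mxi1 and Mxd3 in S49 (Bcl-2) cells and the 3 called falls of Myc with dex stayed called under every alternative that was run. The size of the Myc change moved, from -0.50 to -0.18 at 24 h in S49 (Bcl-2) cells. In S49 (Neo) cells it ranged from -0.43 to -0.33 at 24 h and from -0.24 to -0.19 at 48 h. Counts of called genes among the 9 moved by over 1.5 times under at least 1 setting in these comparisons. For the difference between lines of the dex change at 24 h (1 with all libraries), array weights gave 3 and leaving out 1 library 1 to 2. For the time difference in S49 (Neo) cells (2), the fit within 1 line and array weights gave 5 each, median centring 1 and leaving out 1 library 2 to 4. For that in S49 (Bcl-2) cells (6), no filter gave 2, the fit within 1 line and the unadjusted threshold 3 each, and leaving out 1 library 3 to 7. For the 24 h controls (2), no filter and median centring gave 1 each, array weights 4, leaving out 1 library 1 to 4, and quantile normalization 0 in limma, with 2 genes at an unadjusted p under 0.05. For the 48 h controls (2), no filter gave 1 and leaving out 1 library 1 to 4. For culture time in S49 (Bcl-2) cells (5), array weights gave 8 and leaving out 1 library 5 to 8. In the other comparisons the counts ranged, over all alternatives, from 7 to 8 (dex at 48 h, S49 (Bcl-2), 7 with all libraries), 5 to 8 (24 h, S49 (Bcl-2), 7), 5 to 9 (48 h, S49 (Neo), 6), 4 to 7 (24 h, S49 (Neo), 5), 5 to 7 (line difference at 48 h, 6) and 4 to 7 (culture time, S49 (Neo), 5). The cause of these moves was not tested. The share of all genes called can move with the setting too. For dex at 48 h in S49 (Neo) cells it was 55.3% with all libraries and 70.8% without the library apart. The counts in this section are therefore not results about the 9 genes alone. Calls were gained as well as lost, 21 gained and 2 lost of 108 values with array weights, 10 and 5 of 72 in the fit within 1 line, and, of 108, 5 and 11 with quantile normalization, 0 and 8 with median centring and 0 and 9 with no filter. Array weights and the fit within 1 line both gained the dex changes of Mxd1, Mxd3 and Mga at 48 h and Max at 24 h in S49 (Neo) cells, the time differences of Myc, Mxi1 and Mga there, and the culture changes of Mxd3 and Mga there. Quantile normalization gained Mxd1 at 48 h in S49 (Neo) cells, Myc between lines at 48 h, the S49 (Bcl-2) time difference of Mxd4 and its culture changes in both lines. With no filter, the calls lost were Mxi1 at 24 h in S49 (Neo), Mnt at 24 h in S49 (Bcl-2), Mxd1 between lines at 48 h and between controls at both times, and the S49 (Bcl-2) time differences of Myc, Mxd1, Mxi1 and Mga. The fit within 1 line lost Max and Mnt at 24 h in S49 (Bcl-2) cells and the time differences of Myc, Mxd1 and Mga there, and array weights lost Mnt at 24 h in these cells (0.10) and the Mxd1 time difference (-0.25).

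Signs turned for values near 0 or carried by 1 library, and the cause was not tested. With array weights, the Mga change at 24 h in S49 (Bcl-2) cells (-0.16 with all libraries) was 0.28, that of Mnt at 48 h in these cells (-0.01) 0.000933, and the 24 h differences between lines of Myc (0.04) and Mga (-0.26) were -0.11 and 0.20. With median centring, Mnt was at -0.024 at 24 h in S49 (Neo) (0.01) and at 0.013 at 48 h in S49 (Bcl-2) cells, the 24 h line difference of Max (-0.03) was 0.011, and the culture change of Mlx was -0.024 in S49 (Bcl-2) (0.03) and -0.031 in S49 (Neo) cells (0.02). With quantile normalization, the 48 h dex change in S49 (Bcl-2) cells was 0.050 for Myc (-0.09) and 0.041 for Mnt, that of Mnt at 24 h in S49 (Neo) cells -0.015, the 24 h line difference 0.058 for Max and 0.010 for Mlx (-0.04), the time difference of Mxd4 in S49 (Neo) cells (-0.08) 0.027, the 24 h control difference of Myc (0.01) -0.00287, and the culture change of Mlx in S49 (Neo) cells -0.00185. Leaving out 1 library gave -0.32 to 0.29 for Mga at 24 h in S49 (Bcl-2) cells and -0.43 to 0.19 for its 24 h line difference. It gave -0.070 to 0.039 for Mnt at 48 h in S49 (Bcl-2) and -0.037 to 0.078 at 24 h in S49 (Neo) cells. The 24 h line difference ranged over -0.046 to 0.12 for Myc, -0.25 to 0.011 for Mxd3 and -0.15 to 0.00240 for Mxi1. The control difference ranged over -0.00526 to 0.028 for Myc at 24 h, and for Mxi1 over -0.015 to 0.082 at 24 h and -0.14 to 0.013 at 48 h.

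The groups share replicate numbers, which no source ties to a day or culture. Same-numbered dex and control libraries correlated in their deviations at 0.079 to 0.325 (S49 (Bcl-2), 48 h), 0.198 to 0.225 (S49 (Bcl-2), 24 h), 0.033 to 0.440 (S49 (Neo), 48 h) and 0.053 to 0.476 (S49 (Neo), 24 h), with 2, 4, 3 and 3 of the 4 pairs above 0.1 in that order. Different numbers averaged -0.053, -0.076, -0.079 and -0.092, and a library correlated best with its own number in 3, 4, 3 and 3 of 4 cases. The block changed 0 calls of dex at 24 h in S49 (Bcl-2) cells. With the replicate block, 4 of 108 values gained a call, Mxd1 at 48 h in S49 (Neo) cells (0.22), the time differences of Mnt in S49 (Bcl-2) (-0.21) and Mxi1 in S49 (Neo) cells (-0.36), and Mnt between 24 h controls (-0.20), and 0 lost one. The counts were then 7 for dex at 48 h in S49 (Neo) cells, 7 and 3 for the time differences in S49 (Bcl-2) and S49 (Neo) cells, and 3 for the 24 h controls.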
